A study of Mus musculus with 9 samples.

Results

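Genes of the 2-cell-like state were followed through 9 RNA libraries of E14 cells. These are a single established line of mouse embryonic stem cells, all grown in the naive state. The labels give the genotype of the untreated cells as wildtype and that of cells with Stag3 siRNA as Stag3 knockdown. Control cells are labelled by their treatment, a control siRNA against luciferase. The set was named as 6 genes, Zscan4c, Zscan4d, Zscan4f, Tcstv3, Zfp352 and Tmem92. Their symbols were looked up among the 16636 genes of the count table, which held 4 of them: Zscan4c (ENSMUSG00000054272), Zscan4d (ENSMUSG00000090714), Zscan4f (ENSMUSG00000070828) and Tmem92 (ENSMUSG00000075610). Tcstv3 and Zfp352 were not analysed here.

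The 2-cell-like state is a rare and transient condition of cultured embryonic stem cells in which they switch on genes otherwise used by the mouse embryo at the 2-cell stage. The transcription factor Dux and the endogenous retrovirus MERVL lie at its centre, and chromatin repressors hold it in check in most cells of a culture. Zscan4 proteins carry a SCAN domain and zinc fingers and are known for their part in telomere lengthening and genome stability in embryonic stem cells. Tmem92 encodes a transmembrane protein and serves as a marker gene of the state.

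The 3 groups had 3 libraries each. Untreated cells received no siRNA. The siLuc group received a control siRNA against luciferase, and the siStag3 group an siRNA against Stag3, which encodes a subunit of cohesin known from meiosis; both transfections lasted 48 hours. All groups grew in 2i/LIF medium, which holds inhibitors of MEK and GSK3 and the cytokine LIF, on fibronectin. Library names give a set (1 or 3) and an experiment number whose meaning the labels do not state. Each group had 2 libraries of Set 1 and 1 of Set 3, and counts below are given in the order Set 1 experiment 1, Set 1 experiment 3, Set 3. The Set 3 library was experiment 5 in untreated and siStag3 cells and experiment 1 in siLuc cells.

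Libraries held 29332436 to 44527534 counts. A count of 3, taken as the least that can be told from 0, equalled 0.0650 to 0.0990 CPM (counts scaled to library size, with TMM factors applied), and such floors cover counting error only. Stag3, the check of the labels, was at 25.7 ± 2.54 CPM in untreated, 24.2 ± 2.20 in siLuc and 14.8 ± 1.12 in siStag3 cells (mean ± SD, n = 3 each). The siStag3 libraries lay below all others, and the log2 difference from siLuc was -0.71 (SE 0.110). Its adjusted p from edgeR was 0.605 without a term for the set and 0.00205 with the set as a covariate. The 8 embryonic stem cell markers, among them Pou5f1, Sox2 and Nanog, summed to 4728 to 5228 CPM over the 9 libraries. Markers of primitive endoderm (8 of 8 in the table) summed to 2.74 to 4.43 CPM and those of fibroblasts (6 of 8) to 3.43 to 5.50 CPM. Trophoblast markers (7 of 8) were at 71.4 to 75.9 CPM in the control groups and 63.4 to 68.3 in siStag3, and neural markers (5 of 6) at 126 to 146 and 144 to 165. Most of the trophoblast sum was Tfap2c, with means of 64.8 CPM in untreated, 65.7 in siLuc and 58.4 in siStag3 cells. Most of the neural sum was Tubb3, with means of 111, 106 and 118 CPM. These sums therefore describe mainly single genes. No marker in the table was at 0 throughout a group, and the part of these markers in the values below was not tested.

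The Zscan4 genes are near-identical copies in a cluster on mouse chromosome 7, where RefSeq for GRCm38.p6 lists Zscan4a, Zscan4b, Zscan4c, Zscan4-ps1, Zscan4d, Zscan4e, Zscan4f, Zscan4-ps2 and Zscan4-ps3 in this order, with other entries, most of them pseudogenes, between them. The count table held Zscan4c to Zscan4f, Zscan4-ps2 and Zscan4-ps3, and the other copies were not analysed here. RefSeq calls Zscan4e a pseudogene. No gene of the Tcstv family was among the rows.

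How alike the copies are is shown by the stretch of 90 coding bases, coding positions 676 to 765, in which the 3 Zscan4 members differ most. Capitals mark the 8 positions at which they are not all equal (GENCODE M21 transcripts, 5′ to 3′).
Zscan4c: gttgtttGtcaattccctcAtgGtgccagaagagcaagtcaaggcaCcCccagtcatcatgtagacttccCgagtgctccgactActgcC
Zscan4d: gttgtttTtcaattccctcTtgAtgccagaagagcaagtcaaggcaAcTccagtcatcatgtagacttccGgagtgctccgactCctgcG
Zscan4f: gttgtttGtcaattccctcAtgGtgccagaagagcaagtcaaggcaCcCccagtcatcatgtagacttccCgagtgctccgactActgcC
Zscan4c and Zscan4f read the same throughout this stretch, and Zscan4d stands apart at all 8 positions. Over the full 1518 coding bases the 3 members differed at 38 positions, and a run of 233 bases (406 to 638) was identical in all of them. Zscan4c and Zscan4f transcripts had 7 mismatches in 1806 aligned bases (99.6% identity), and Zscan4c and Zscan4d had 57 in 2270 (97.5%). The closest pair was Zscan4f and the pseudogene Zscan4-ps2, with 4 mismatches in 1806 bases and 898 bases in a row without one.

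Most short stretches of a Zscan4 transcript occur in more than 1 copy. Of all 31-base stretches, 91.5% in Zscan4c, 65.0% in Zscan4d and 91.7% in Zscan4f also occur in another gene, nearly all of them in other Zscan4 copies, which left 190, 784 and 162 stretches that mark a single gene. Tmem92 shared 3.62% of its stretches with other genes and none with Zscan4. The submitters' processing notes name Salmon, a tool that divides shared reads between transcripts by estimation, so the split among Zscan4 rows is uncertain and their sum is given beside them.

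The copies are alike upstream of the gene as well. The sequences below are the matching 131 bases before the annotated starts of the 3 members (RefSeq, GRCm38.p6, chromosome 7; Zscan4c and Zscan4f on the + strand, Zscan4d on the - strand), with the 5 differing positions in capitals. They end 23, 34 and 0 bases before the annotated starts of Zscan4c, Zscan4d and Zscan4f.
Zscan4c: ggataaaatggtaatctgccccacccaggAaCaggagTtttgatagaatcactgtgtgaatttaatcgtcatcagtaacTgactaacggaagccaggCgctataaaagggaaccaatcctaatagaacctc
Zscan4d: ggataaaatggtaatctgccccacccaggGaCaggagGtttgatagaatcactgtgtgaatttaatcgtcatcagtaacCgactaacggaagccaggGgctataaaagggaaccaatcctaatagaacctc
Zscan4f: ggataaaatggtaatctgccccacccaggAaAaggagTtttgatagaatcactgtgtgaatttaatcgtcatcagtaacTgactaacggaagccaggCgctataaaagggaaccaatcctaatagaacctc
Each holds the letters TATAAAA, the core of a TATA box, beginning at position 101 of the stretch. On either strand these letters occur in 1801 of 32851 mouse promoter windows of 300 bases (5.48%), and a match of letters is a description and not a site.

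All 4 genes were close to the limit of detection. Zscan4c had 11, 2 and 1 counts in untreated, 7, 8 and 0 in siLuc and 9, 15 and 7 in siStag3 libraries. In counts, the lowest siStag3 library of Zscan4c equalled the middle siLuc library at 7. Scaled to depth, the lowest siStag3 library, at 0.231 CPM, lay just above the highest siLuc library, at 0.223 CPM. The untreated library of Set 1 experiment 1 lay above 2 of the 3 siStag3 libraries on both scales. Zscan4f, the most counted member with 76 counts in all, had 1, 22 and 5 counts in untreated, 0, 6 and 12 in siLuc and 18, 1 and 11 in siStag3 libraries. Every group of Zscan4f held a library at 0 or 1 count and one at 12 or more, and its highest value was in an untreated library.

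Zscan4d had 4, 3 and 2 counts in untreated, 1, 10 and 3 in siLuc and 0, 7 and 7 in siStag3 libraries. Its lowest library was a siStag3 library and its highest a siLuc library. Tmem92 had 4, 3 and 1 counts in untreated, 7, 1 and 2 in siLuc and 6, 7 and 4 in siStag3 libraries. In counts, a siLuc library reached the siStag3 maximum of Tmem92 and an untreated library its minimum, while all siStag3 libraries lay above the floor of 3 counts.

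Levels were low on every scale. Zscan4c was at 0.130 ± 0.156 CPM in untreated, 0.148 ± 0.128 in siLuc and 0.319 ± 0.134 in siStag3 cells, and Tmem92 at 0.0741 ± 0.0470, 0.104 ± 0.104 and 0.174 ± 0.0445 CPM (mean ± SD, n = 3 each). Zscan4d was at 0.0814 ± 0.0350, 0.134 ± 0.127 and 0.150 ± 0.130 CPM, and Zscan4f at 0.262 ± 0.338, 0.181 ± 0.189 and 0.300 ± 0.243 CPM. As levels per kilobase of transcript, Zscan4c was at 0.0570, 0.0650 and 0.140 CPM per kilobase and Zscan4f at 0.143, 0.0990 and 0.164, where the pluripotency factor Pou5f1 was at 644, 592 and 643. For all 4 genes the mean was highest in siStag3 cells, but 3 of them are near-identical Zscan4 copies and not independent rows. Ranges in CPM overlapped between groups except for Zscan4c in siStag3 against siLuc (lowest 0.231, highest 0.223) and Tmem92 in siStag3 against untreated cells (lowest 0.132, highest 0.112). A gap between 3 and 3 libraries has a two-sided exact permutation p no lower than 0.1. The share of all genes with such a gap, or with their highest mean in siStag3 cells, was not counted. In bulk RNA, a difference in the number of cells in the state and one in RNA per such cell cannot be told apart.

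The division of counts among the Zscan4 copies changed from library to library. Zscan4f took 59.5% and 62.5% of the Zscan4 counts in the untreated libraries of Set 1 experiment 3 and Set 3, but 2.63% in the one of Set 1 experiment 1. In siStag3 cells Zscan4f took 50.0% in Set 1 experiment 1 and 2.27% in Set 1 experiment 3, where Zscan4c and Zscan4-ps2 took 34.1% each. Zscan4-ps2, the pseudogene nearest to Zscan4f in sequence, had 12, 0 and 0 counts in untreated, 5, 8 and 0 in siLuc and 2, 15 and 12 in siStag3 libraries. Zscan4-ps3 had 0, 6 and 0, 1, 3 and 8, and 0, 4 and 10 counts, and Zscan4e 10, 4 and 0, 3, 8 and 5, and 7, 2 and 7. Set against the count that the depth of each library would give at a constant level, the squared deviations of Zscan4f over the 9 libraries averaged 7.74 times those of counting error (Pearson's chi-square divided by its degrees of freedom). The same ratio was 4.12 for Zscan4c, 2.81 for Zscan4d and 1.80 for Tmem92, and is near 1 for counting error alone. For Zscan4c to Zscan4f added up it was 4.65, and with Zscan4-ps2 and Zscan4-ps3 added as well it was 8.12. Adding the copies up thus did not bring the ratio near 1.

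**Figure D1:**
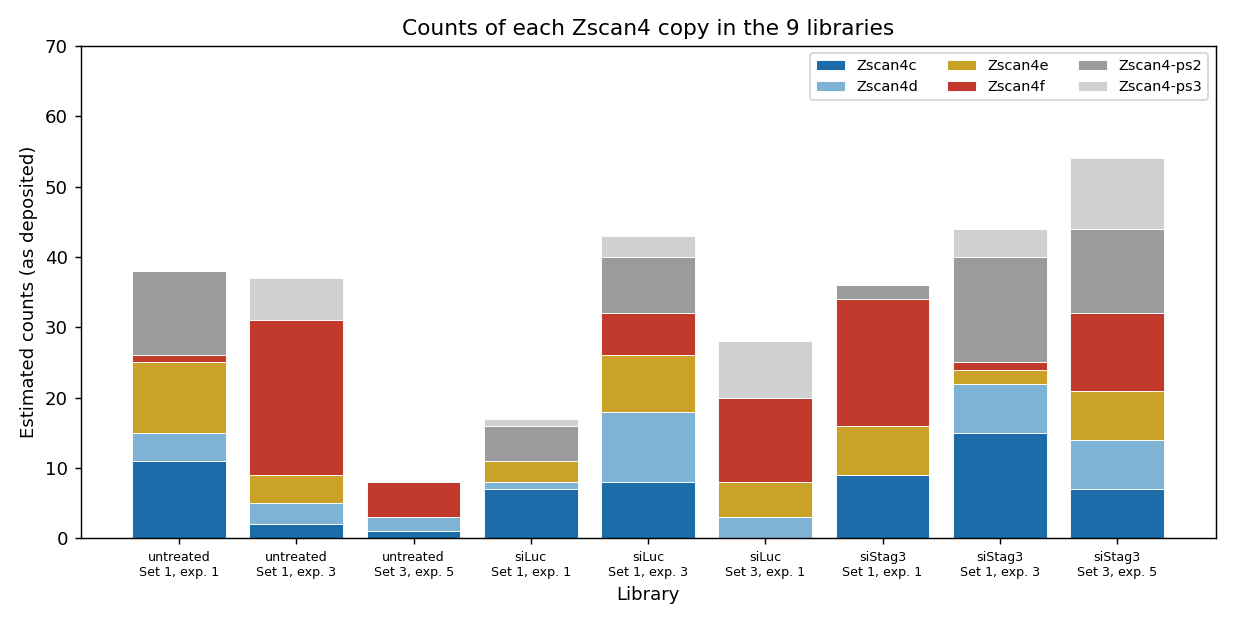
Counts of the 6 Zscan4 rows stacked for each of the 9 libraries (y axis, estimated counts as deposited; x axis, libraries by group, set and experiment). The total of the 6 rows ran from 8 counts in the untreated Set 3 library to 54 in the siStag3 Set 3 library, and the share of each copy differed between libraries of the same group.

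The 4 rows named Zscan4 with a letter, Zscan4c to Zscan4f, were then added up. Their sum was 26, 31 and 8 counts in untreated, 11, 32 and 20 in siLuc and 34, 25 and 32 in siStag3 libraries. In CPM these were 0.729, 0.916 and 0.173, then 0.350, 0.883 and 0.630, then 0.955, 0.788 and 1.06. The siStag3 libraries were close to each other, and the lowest of them lay below the highest library of each control group. The single lowest value was the untreated Set 3 library, which had the most counts in total of all libraries. Adding Zscan4-ps2 and Zscan4-ps3 gave 38, 37 and 8, then 17, 43 and 28, then 36, 44 and 54 counts.

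**Figure D2:**
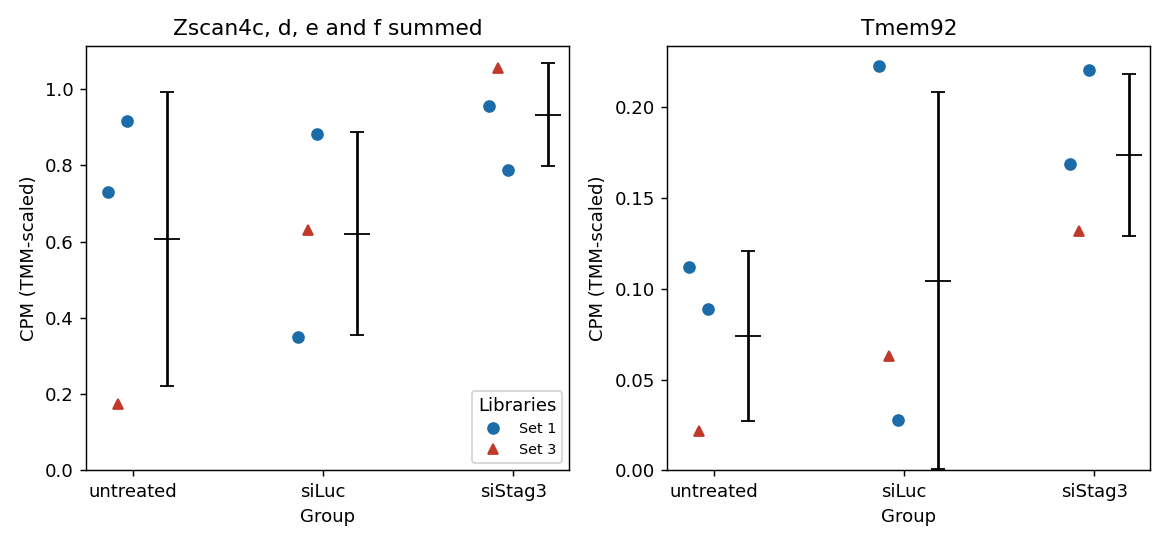
Summed CPM of Zscan4c, Zscan4d, Zscan4e and Zscan4f (left) and CPM of Tmem92 (right) in each library by group, with TMM scaling; circles are Set 1 and triangles Set 3 libraries, and the bars show mean ± SD (n = 3). Group means on the left are 0.606, 0.621 and 0.933 CPM, and all groups overlap there; on the right the siStag3 libraries overlap with siLuc and lie above the untreated ones.

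The comparison of siStag3 with siLuc addresses the effect of Stag3 knockdown beyond that of transfection. No member was past the threshold of 0.05 on the adjusted p. The test called 0% of 14246 genes, and 0% of 16636 without a filter on low counts (0 genes in each). Of the 14246 genes, 307 (2.155%) had an unadjusted p under 0.05 in edgeR, and 7 were called by DESeq2. The summed Zscan4 rows averaged 0.933 ± 0.136 CPM in siStag3 against 0.621 ± 0.266 CPM in siLuc cells, a ratio of 1.5. The fitted log2 difference was 0.57 (95% interval -0.57 to 1.71, edgeR adjusted p = 1.00), and the exact permutation p, two-sided over 3 and 3 libraries, was 0.2, where 0.1 is the smallest possible. By single gene the log2 differences were 1.07 for Zscan4c (-0.89 to 3.03), 0.08 for Zscan4d (-2.01 to 2.17), 0.74 for Zscan4f (-1.83 to 3.30) and 0.75 for Tmem92 (-0.87 to 2.38). These values moved by over 1.5 times when single siLuc or siStag3 libraries were left out, to between 0.52 and 1.49 for Zscan4c, 0.11 and 1.76 for Zscan4f and 0.28 and 1.89 for Tmem92, the last without siLuc Set 1 experiment 1 (unadjusted p = 0.0439, edgeR adjusted p = 1). With single libraries left out in the same way, Zscan4d ran from -0.38 to 1.16, a range that crossed 0. All 4 of the 95% intervals include 0 and extend beyond 2 on the log2 scale. The small number of libraries, their spread and their depth leave both no difference and a large one possible.

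Within sets, the summed Zscan4 level was higher in siStag3 than in siLuc cells by 0.255 CPM in Set 1 (2 libraries against 2) and by 0.426 CPM in Set 3 (1 against 1). The direction differed between the experiment numbers of Set 1. In experiment 1 siStag3 was at 0.955 and siLuc at 0.350 CPM, and in experiment 3 they were at 0.788 and 0.883 CPM. The Set 3 libraries of these groups had unequal experiment numbers. With the set as a covariate in edgeR the log2 difference of the sum stayed at 0.57 (adjusted p = 0.763, and 0.739 to 1 over all alternatives). That fit called 0.0281% of genes, 2 higher and 2 lower, and no member was among them. With set and experiment as a block, which called 0.014% of genes, the log2 difference of the sum was 0.83 (adjusted p = 1.00). In all block fits the siLuc Set 3 library stood alone in its block. It therefore added nothing to the differences that involve siLuc.

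Transfection itself was addressed by siLuc against untreated cells. The summed Zscan4 rows were at 0.621 ± 0.266 and 0.606 ± 0.386 CPM, with a log2 difference of 0.09 (95% interval -1.09 to 1.27, edgeR adjusted p = 0.958) and an exact permutation p of 1. Within sets the difference had opposite signs, at -0.206 CPM in Set 1 and 0.457 CPM in Set 3. The members gave log2 differences of 0.27 for Zscan4c, 0.79 for Zscan4d, -0.46 for Zscan4f and 0.51 for Tmem92, none past the threshold in a test that called 0.00702% of genes with the filter on low counts and 0.00601% without it (1 gene each).

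Both treatments together were covered by siStag3 against untreated cells, which uses the same siStag3 libraries as the first comparison and the same untreated libraries as the second. The log2 difference of the summed Zscan4 rows was 0.66 (95% interval -0.48 to 1.80, edgeR adjusted p = 0.930, exact permutation p = 0.2). Zscan4c differed by 1.33 (-0.64 to 3.31), Tmem92 by 1.26 (-0.42 to 2.94), Zscan4d by 0.86 and Zscan4f by 0.28, none past the threshold, with 0.014% of genes called with the filter and 0.012% without it (2 genes each). The summed difference was 0.0489 CPM within Set 1 and 0.883 CPM within Set 3, and leaving out the untreated Set 3 library brought the log2 difference of the sum from 0.66 to 0.19.

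**Figure D3:**
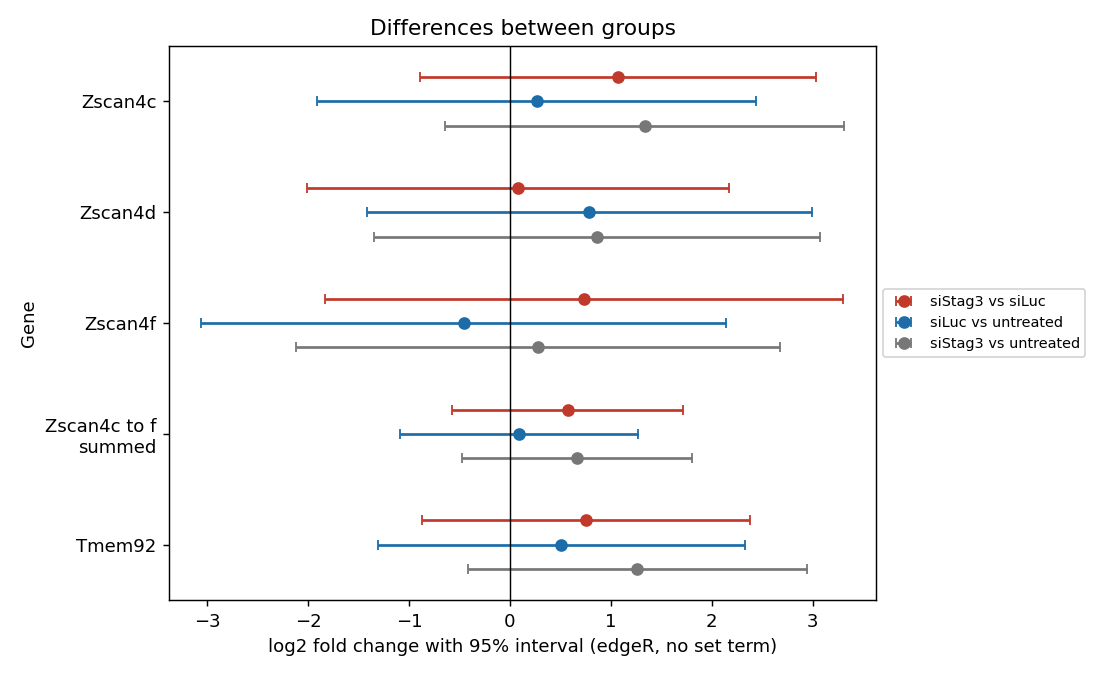
Log2 fold changes of Zscan4c, Zscan4d, Zscan4f, Tmem92 and the summed Zscan4c to Zscan4f rows in the 3 comparisons (x axis, log2 fold change from edgeR without a set term; points are estimates and lines 95% intervals). Every interval crosses 0, and those of single genes are wider than those of the sum.

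A wider list of 65 genes of the 2-cell-like program was looked up as well, covering Dux, MERVL-linked families and early embryonic genes. Of these, 27 were in the table and 15 had enough counts to be tested. No Dux row was among them, and Duxbl1, a Dux-related gene, was at 2.20, 1.99 and 1.79 CPM in untreated, siLuc and siStag3 cells. In siStag3 against siLuc the median log2 difference of the 15 genes was -0.06, beside -0.00 over all genes tested, with 5 higher and 10 lower and none past the threshold in edgeR with or without the set covariate. Against untreated cells the medians were -0.21 in siLuc (3 higher, 12 lower) and -0.31 in siStag3 cells (5 higher, 10 lower). Over all genes tested they were -0.0026 and -0.0034. Again none of the 15 genes was past the threshold without the set covariate. In each of these 2 comparisons 3 of the 15 had an unadjusted edgeR p under 0.05, beside 8.56% of all genes in siLuc and 5.95% in siStag3 cells.

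With the set as a covariate, 3 of the 15 genes passed in siLuc against untreated cells, where 4.2% of all genes passed (1.65% higher and 2.55% lower), and 2 of 15 in siStag3 against untreated cells, where 2.53% did (1.07% and 1.46%). Ddit4l, an inhibitor of mTOR signalling, was at 19.7, 19.2 and 13.8 CPM in untreated, 27.5, 24.6 and 21.2 in siLuc and 26.9, 25.1 and 18.3 in siStag3 libraries. Ddit4l rose by 0.49 on the log2 scale in siLuc (SE 0.0766, edgeR adjusted p = 0.00415) and by 0.42 in siStag3 cells (SE 0.0768, adjusted p = 0.0110). The siLuc libraries of Ddit4l did not overlap with the untreated ones, and the siStag3 libraries did.

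Zscan5b, a zinc finger gene with a SCAN domain, was at 16.5, 16.8 and 15.3 CPM in untreated, 13.5, 14.1 and 10.7 in siLuc and 10.9, 12.2 and 11.02 in siStag3 libraries. It fell in siLuc (log2 -0.35, SE 0.0872, edgeR adjusted p = 0.0428) and in siStag3 cells (-0.51, SE 0.0880, adjusted p = 0.00725), with all untreated libraries above all others. Obox6, an oocyte-specific homeobox gene, was at 3.53, 3.57 and 2.27 CPM in untreated, 2.20, 2.23 and 1.07 in siLuc and 2.11, 2.17 and 1.81 in siStag3 libraries, and fell in siLuc cells (log2 -0.78, SE 0.163, adjusted p = 0.0219). Its difference between siStag3 and untreated cells, -0.61, did not pass (adjusted p = 0.0676).

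These calls depended on the libraries. With the set covariate kept and each of the 6 compared libraries left out in turn, Ddit4l in siLuc remained past the threshold in 6 of 6 fits and Ddit4l and Zscan5b in siStag3 in 4 of 6 each, but Obox6 in siLuc in 1 of 6 and Zscan5b in siLuc in 0 of 6. With the set and experiment numbers of the library names as a block, a fit that called 0.604% of genes in siLuc and 2.47% in siStag3 against untreated cells, Ddit4l passed in both (edgeR adjusted p = 0.0378 and 0.00896) and Zscan5b in siStag3 (0.00734), but not Zscan5b (0.279) or Obox6 (0.170) in siLuc. Among the siLuc libraries, only those of Set 1 inform the siLuc differences of that fit. Adding a correction for GC content to the set covariate brought in Pramel6 in siLuc against untreated cells (-0.74, adjusted p = 0.0247) and Usp26 (-0.78, adjusted p = 0.0110) and Obox6 (-0.67, adjusted p = 0.0215) in siStag3 against untreated cells, where that fit called 6.63% and 6.21% of all genes.

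**Figure D4:**
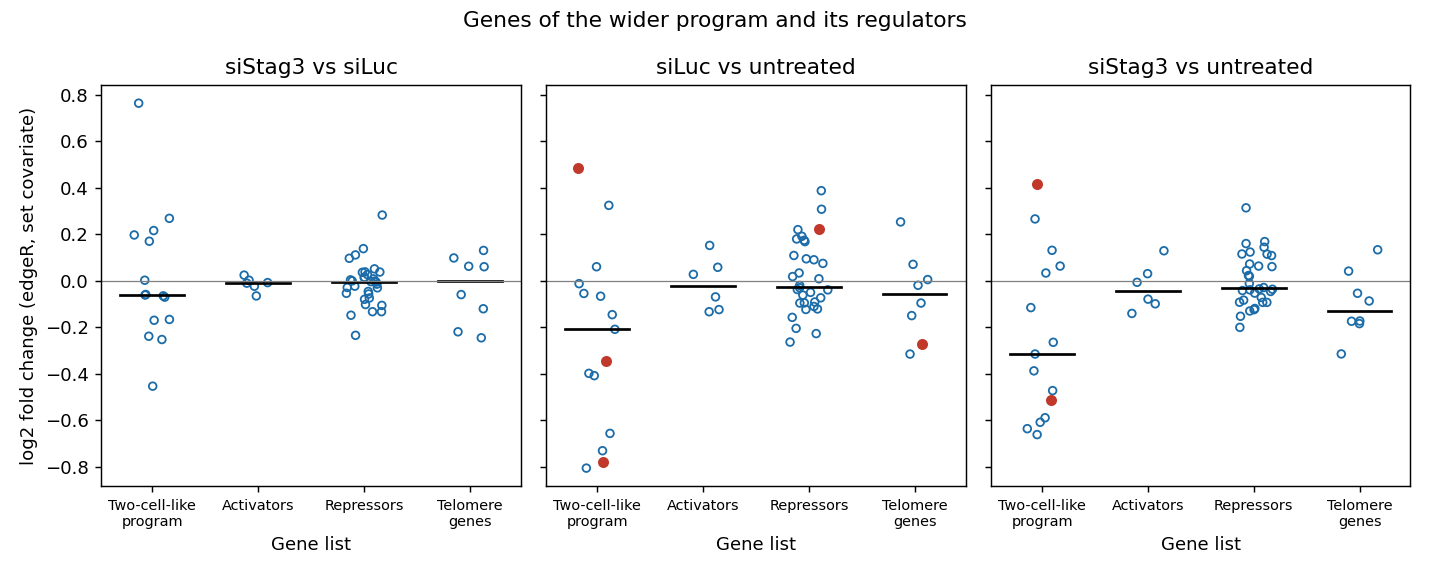
Log2 fold changes of the tested genes of each list in the 3 comparisons, from edgeR with the set covariate (y axis, log2 fold change; each point a gene, filled red where the adjusted p is under 0.05, and a line at the median). In siStag3 against siLuc no listed gene is filled, and the medians of all 4 lists lie near 0.

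Copies of other MERVL-linked families were added up in the same way as Zscan4. The 10 numbered Eif1ad rows, genes related to the translation initiation factor eIF1A, summed to 3.11 ± 1.09 CPM in untreated, 2.80 ± 0.876 in siLuc and 3.71 ± 0.928 in siStag3 cells. Their log2 difference between siStag3 and siLuc was 0.41 (95% interval -0.32 to 1.13, edgeR adjusted p = 1.00), and 0.42 with the set covariate (0.11 to 0.73, unadjusted p = 0.0123, adjusted p = 0.483). The 4 Usp17l rows, genes of deubiquitinating enzymes, gave 0.32 (-0.38 to 1.02, adjusted p = 1.00).

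Genes that act on the state were examined next. The 6 listed activators, the chromatin factors Dppa2 and Dppa4, the elongation factor subunit Nelfa, Tbx3, Trp53 and Gata2, were all tested and none passed in any of the 3 comparisons in edgeR without the set covariate, with it, or with it and the GC correction. Their log2 differences between siStag3 and siLuc ran from -0.07 to 0.02 without the set covariate, with a median of -0.00. Of 32 listed repressors none passed without the set covariate. With it, Lin28a, an RNA-binding protein of pluripotent cells, rose by 0.22 in siLuc against untreated cells (SE 0.0526, edgeR adjusted p = 0.0343), and no repressor passed in the other comparisons. This was 1 of 32 repressors in a fit that called 4.2% of all genes (1.65% higher).

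Lin28a was at 123, 121 and 145 CPM in untreated, 136, 140 and 178 in siLuc and 119, 120 and 147 in siStag3 libraries. Within each set the siLuc libraries of Lin28a lay above all others, and over whole groups the ranges overlapped. The call did not remain in any of the 6 fits that left out a library, nor with the block (adjusted p = 0.228). With the GC correction added, Lin28a was also past the threshold between siStag3 and siLuc (-0.25, adjusted p = 0.0225), where 0.358% of genes were called, and the repressor Zfp809 between siStag3 and untreated cells (-0.21, adjusted p = 0.0353).

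Among 8 genes of telomere maintenance, listed because of the known part of Zscan4 there, 1 passed with the set covariate and none without it. That fit called 4.2% of all genes in siLuc against untreated cells (2.55% lower). Rtel1, a helicase, was at 155, 154 and 178 CPM in untreated, 122, 131 and 151 in siLuc and 129, 137 and 167 in siStag3 libraries. It fell in siLuc against untreated cells (log2 -0.27, SE 0.0560, edgeR adjusted p = 0.0216), and the call remained in 1 of 6 fits with a library left out and not with the block (adjusted p = 0.117). The log2 difference of Rtel1 between siStag3 and siLuc was 0.10 without the set covariate and did not pass.

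Levels of other genes were ranked by how closely they followed the summed Zscan4 rows over the 9 libraries. Genes with a mean under 20 counts were left out, among them Tmem92 (mean 3.89 counts) and program genes such as Eif1ad7 and Usp17lb. Whether these followed the sum was not tested. Of the genes ranked, the closest were none of the listed ones. Among 12979 genes with a mean of at least 20 counts, Pearson's r of log2(CPM + 0.5) was highest for Fez1 (0.865), Mbd2 (0.849), Bbs1 (0.847), Pclo (0.834) and Styk1 (0.829). Of the program, Usp17la had an r of 0.464 at rank 592, and of the activators Dppa2 had 0.290 and Dppa4 -0.465. These values describe 9 libraries that share groups, sets and depth.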

How the data were processed

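Bulk RNA-seq of 9 libraries was analysed from 1 table of estimated counts per gene that the authors deposited as whole numbers; the submitters' processing notes name FastQC, Salmon, DESeq2 and GRCm39, with no versions or order. The smallest sum of a row was 9 counts. Column names gave group, set and experiment, not the replicate numbers of the sample titles. The series' text calls the replicates biological.

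Counts were tested with edgeR 4.0.16 in R 4.3.3 (TMM, filterByExpr, robust quasi-likelihood F test, a mean per group over all 9 libraries, two-sided, Benjamini-Hochberg over 14246 genes, threshold 0.05). filterByExpr kept Zscan4f alone among the members; Zscan4c, Zscan4d and Tmem92 were taken from the same fit without a filter (16636 genes). SE is the absolute log2 fold change divided by the square root of F. The plan foresaw plain counts; since the deposited values were whole, none was rounded. Set was treated as a batch. Biological variation was 14.6% without and 7.62% with the set covariate. DESeq2 1.42.0, other scalings, filters, sets and left-out libraries were alternatives. The edgeR fit without a set term was tested on simulated counts that held no set effect. Changes were placed only in genes with more counts than the members, so the simulation did not cover member levels.

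Members and lists were chosen with earlier results of these data known. Genes named were the members, other lettered Zscan4 rows, Stag3, listed genes past the threshold (up to 4 per list and comparison) and the 5 highest correlations; the pseudogene rows, Duxbl1, Usp17la, Dppa2 and Dppa4 levels and correlations and the family sums were added after values were seen. Sequence comparisons used GENCODE M21 transcripts and RefSeq promoters of GRCm38.p6; all 4 members matched by symbol or ID, and the builds differ, so no coordinates are given.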

Additional observations from a re-analysis of the deposited data

How the results depend on the processing

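Column names carry no replicate numbers of the sample titles; set and experiment numbers, whose meaning is not stated, were used as a replicate block after the data were seen. Libraries with equal numbers deviated together (r 0.181 to 0.663), and so did those of the same set with unequal experiment numbers (r 0.190 to 0.561). Within Set 1 the differences between experiments 1 and 3 did not correlate between groups (r -0.044 to -0.025). The block fit left 3 residual degrees of freedom. The siLuc Set 3 library was alone in its block and added nothing to differences that involve siLuc. Genes called were 2, 86 and 352 in siStag3 vs siLuc, siLuc vs untreated and siStag3 vs untreated. In this fit the sum in siLuc vs untreated was -0.089 and Zscan4d in siStag3 vs siLuc -0.14. For the 4 members and the Zscan4 sum in 3 comparisons, 0 of 218 alternative values passed the threshold (lowest adjusted p 0.305, edgeR or DESeq2), and 22 changed sign, 17 of them with a library left out. With Set 1 libraries only, log2 differences were -0.59 for Zscan4d (siStag3 vs siLuc), -0.38 for the sum (siLuc vs untreated), -0.25 for Zscan4f (siStag3 vs untreated) and -0.052 for Obox6 (siStag3 vs siLuc). Lin28a was at 0.027 in siStag3 vs untreated with set covariate and GC correction. With single libraries left out, ranges that crossed 0 were, for siStag3 vs siLuc, -0.38 to 1.16 (Zscan4d), -0.17 to 0.089 (Ddit4l), -0.12 to 0.32 (Obox6) and -0.017 to 0.20 (Rtel1). For siLuc vs untreated they were -0.30 to 1.88 (Zscan4c), -0.30 to 1.22 (Zscan4d), -1.47 to 1.28 (Zscan4f), -0.63 to 0.98 (Tmem92), -0.38 to 0.52 (sum) and -0.16 to 0.00097 (Stag3). For siStag3 vs untreated they were -0.36 to 2.02 (Zscan4f) and -0.11 to 0.087 (Lin28a). The sum ran from 0.30 to 0.92 in siStag3 vs siLuc and from 0.19 to 1.09 in siStag3 vs untreated, lowest without the untreated Set 3 library. In siStag3 vs untreated, other ranges were 0.77 to 2.95 (Zscan4c), 0.41 to 1.48 (Zscan4d) and 0.77 to 1.70 (Tmem92).

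Genes past the threshold, 0 in siStag3 vs siLuc, became 7 with DESeq2, 4 with the set covariate, 51 with set covariate and GC correction and 4 in Set 1, and stayed at 0 with each library left out. In siLuc vs untreated, 1 became 56, 598, 944 and 298, and 0 to 1 with a library left out. In siStag3 vs untreated, 2 became 73, 361, 884 and 949, 4 with DESeq2 size factors, 5 with total-count scaling, 1 with the 6 compared libraries, and 1 to 11 with a library left out. The cause was not tested. Library-out fits leave a group with 2 libraries. Counts of 0 to 22 per member and library limit all member values.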
